A study of Oryctolagus cuniculus with 24 samples.

Results

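In the caecum of rabbits, 40 genes of chromosome 2 were counted in every library of intestinal epithelial cells (IEC) and had no read in any library of lamina propria mononuclear cells (LPMC) of the same animals. The genes were found by a rule applied to the 17318 genes of the deposited tables, of which 1157 lie on chromosome 2: a value of 0 in all 12 LPMC libraries, a value above 0 in all 12 IEC libraries, and a mean above 1 CPM (the reads of a gene scaled to a common library size) over the IEC libraries. The genes were thus chosen by their measured levels in both cell fractions, so that the difference between IEC and LPMC is given as a description, without a test. What the rule did not use is how the genes behaved between the 4 groups of IEC.

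The 24 libraries came from the IEC and the LPMC of 12 New Zealand White rabbits, with 3 rabbits per group. In TSO rabbits, 2500 Trichuris suis ova (TSO, the eggs of a whipworm of pigs) were placed in the stomach on 3 occasions from day 1, and Veh rabbits were given the vehicle alone. DSS rabbits drank 0.1% dextran sodium sulphate, a sulphated polysaccharide that injures the gut epithelium, in fennel tea for 5 days from day 26, whereas Water rabbits had the tea without DSS, and tissue was taken on day 35. The 4 groups are Veh Water and TSO Water, without DSS, and Veh DSS and TSO DSS. Room A housed every DSS rabbit, and 2 rabbits of the Water groups were in room B (Veh Water 1 and TSO Water 2).

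The epithelium is a single sheet of absorptive, mucus-secreting and other specialised cells over a lamina propria that holds B cells, antibody-secreting plasma cells, T cells and macrophages, and lymphocytes also lie between the epithelial cells. IEC were released from the mucosa by a chelator of divalent cations and LPMC by digestion of the remaining tissue with collagenase and density centrifugation, and neither procedure sorts cells by a marker. The tables name genes by Ensembl identifier only. A name table of 38822 rabbit genes of another assembly matched 0 of the 17318 identifiers, so the products of the 40 genes, their functions, and the marker genes that would check either cell fraction are not given here. No genome sequence or gene position was used beyond the chromosome and the strand.

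IEC libraries held 13148491 to 27480032 reads and LPMC libraries 3685522 to 15770357. In IEC, 2 libraries stood apart in the level of the 40 genes, Veh DSS 2 and TSO DSS 1, and comparisons of the groups that hold them are given with and without them. The reads of the mitochondrial chromosome made up 12.4% to 46.5% of an IEC library, with 12.4% in Veh DSS 2 and 20.9% in TSO DSS 1. With the reads of that chromosome left out of the total, the summed level of the 40 genes was again highest in Veh DSS 2, at 13.6-fold the lowest library.

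In LPMC, the 40 genes had 0 reads of 139540618. At 3 reads, the upper limit that a count of 0 allows, a gene would have had 0.0215 CPM over all LPMC libraries together, and between 0.190 and 0.814 CPM in a single LPMC library. These limits cover counting error only. The tables of IEC and LPMC were made separately and their counting procedure is not given in the sources used here, so that absence of the RNA in LPMC and a difference in how the LPMC reads were counted cannot be told apart. For that reason no fold between the fractions is given for the 40 genes, and the ratios given below for other genes carry the same limit. The gene with most reads in IEC, ENSOCUG00000025374, had 631918 IEC reads and a mean of 2851 CPM. It ranked 28 among all genes in IEC. Of the 1454 genes with a mean above 100 CPM in IEC, 17 had no read in LPMC, and all 17 were among the 40.

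The other 9555 genes with a mean above 1 CPM and reads in every IEC library had a median LPMC level of 0.979 times the IEC level. The lowest ratio among them was 0.0290, in ENSOCUG00000010728, and the fewest LPMC reads were 16. No gene of another chromosome met the rule, and 0 genes had the converse pattern of reads in all LPMC libraries and none in any IEC library. In the deposited tables, all 40 genes were marked as present in each IEC table and 0 in any LPMC table.

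**Figure D1:**
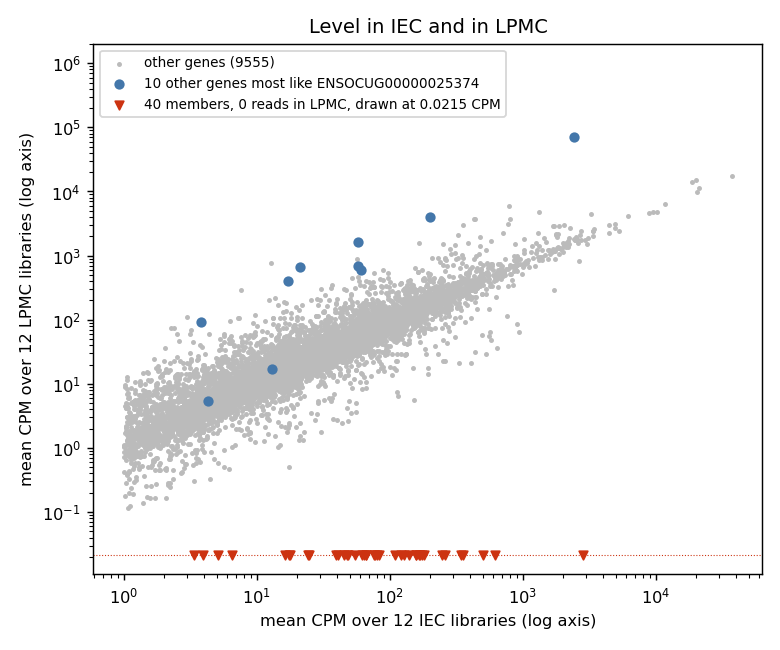
Mean CPM of each gene over the 12 LPMC libraries (vertical, log axis) against its mean over the 12 IEC libraries (horizontal, log axis), for genes with reads in every IEC library and a mean above 1 CPM there. Grey points are the other 9555 genes, blue points the 10 other genes most like ENSOCUG00000025374 across IEC libraries, and red triangles the 40 genes, which had 0 LPMC reads and are drawn at the limit of 0.0215 CPM, below the lowest grey point.

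Few chromosome 2 genes lay near the limits of the rule. ENSOCUG00000006840 had no LPMC read and reads in all 12 IEC libraries but a mean of 0.665 CPM, under the limit of 1 CPM, whereas the member with the lowest mean, ENSOCUG00000021677, had 3.35 CPM. ENSOCUG00000022485, with a mean of 3.51 CPM and no LPMC read, was left out because it had no read in 1 IEC library. The chromosome 2 genes with the fewest LPMC reads above 0 were ENSOCUG00000007679, with 16 reads and 1.07 CPM in IEC, and ENSOCUG00000008858, with 37 reads and 2.15 CPM in IEC.

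The 40 genes spanned a wide range of read counts in IEC. Mean levels were above 100 CPM in 17 genes, between 10 and 100 CPM in 19 and under 10 CPM in 4. CPM values are not divided by gene length, which was not used here, so that the order of the genes is one of reads and not of transcript number. After ENSOCUG00000025374 came ENSOCUG00000024526 with a mean of 621 CPM, ENSOCUG00000027394 with 499 CPM, ENSOCUG00000003837 with 353 CPM and ENSOCUG00000026509 with 345 CPM. The next 12 were ENSOCUG00000028069, ENSOCUG00000023180, ENSOCUG00000025019, ENSOCUG00000003835, ENSOCUG00000022165, ENSOCUG00000003834, ENSOCUG00000021565, ENSOCUG00000022508, ENSOCUG00000022602, ENSOCUG00000025103, ENSOCUG00000026446 and ENSOCUG00000027122, with means from 258 CPM down to 110.0 CPM.

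The 19 genes between 10 and 100 CPM ran from ENSOCUG00000025562 at 82.8 CPM to ENSOCUG00000027043 at 16.2 CPM. In that order they also included ENSOCUG00000023724, ENSOCUG00000028173, ENSOCUG00000025574, ENSOCUG00000021122, ENSOCUG00000028050, ENSOCUG00000025955, ENSOCUG00000026536, ENSOCUG00000023167, ENSOCUG00000027178, ENSOCUG00000023983, ENSOCUG00000023989, ENSOCUG00000023845, ENSOCUG00000023257, ENSOCUG00000024183, ENSOCUG00000023475, ENSOCUG00000021442 and ENSOCUG00000022249. The 4 lowest genes were ENSOCUG00000014514 (6.47 CPM), ENSOCUG00000026952 (5.08 CPM), ENSOCUG00000027223 (3.97 CPM) and ENSOCUG00000021677 (3.35 CPM).

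The genes were unevenly placed on the 2 strands. In the annotation, 33 of the 40 lay on the minus strand and 7 on the plus strand, a share of 82.5% on the minus strand against 52.0% of all chromosome 2 genes. The gene with most reads was 1 of the 7 on the plus strand, and the 4 lowest genes were all on the plus strand. The other 2 plus-strand genes were ENSOCUG00000022602, with a mean of 139.9 CPM, and ENSOCUG00000023257, with 39.5 CPM. The libraries were not stranded, so reads of a gene and of an overlapping gene on the other strand could not be told apart.

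The summed level of the 40 genes varied 17.5-fold between IEC libraries, from 0.152% to 2.66% of all reads. In Veh Water the sum was 5320, 3281 and 6847 CPM. In TSO Water it was 3968, 8227 and 1518 CPM. In Veh DSS it was 4688, 26606 and 2656 CPM, and in TSO DSS 21979, 3367 and 3338 CPM. Each DSS group thus had 1 rabbit far above its 2 companions, and the remaining DSS libraries lay within the range of the Water libraries. The other 10 libraries lay between 1518 and 8227 CPM, a 5.42-fold range with a median of 3668 CPM, and Veh DSS 2 was 3.23-fold and TSO DSS 1 2.67-fold above the highest of them.

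The group means were 5149 ± 1789 CPM in Veh Water, 4571 ± 3395 in TSO Water, 11317 ± 13280 in Veh DSS and 9562 ± 10754 in TSO DSS (SD, n = 3 each). Both DSS groups had an SD above their mean, and the ranges of all 4 groups overlapped. In bulk RNA, a smaller number of cells of a type and less RNA per cell cannot be told apart.

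ENSOCUG00000025374 followed the same course. Its level was 2022, 1162 and 2590 CPM in Veh Water and 1440, 3158 and 569 CPM in TSO Water. In Veh DSS it was 1711, 9934 and 1006 CPM, and in TSO DSS 8223, 1203 and 1193 CPM. The order of the group means was Veh DSS (4217 ± 4964 CPM), TSO DSS (3540 ± 4056), Veh Water (1924 ± 719) and TSO Water (1723 ± 1317; SD, n = 3 each), and each neighbour in this order differed from the next by less than the larger SD of the pair.

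ENSOCUG00000024526 had 461, 289 and 549 CPM in Veh Water, 317, 737 and 116 in TSO Water, 409, 2166 and 207 in Veh DSS, and 1628, 264 and 305 in TSO DSS. ENSOCUG00000027394 had 314, 183 and 447 CPM in Veh Water, 251, 534 and 110.4 in TSO Water, 318, 1579 and 175 in Veh DSS, and 1647, 222 and 203 in TSO DSS. In both genes the high values again belonged to Veh DSS 2 and TSO DSS 1, and the lowest to TSO Water 3.

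**Figure D2:**
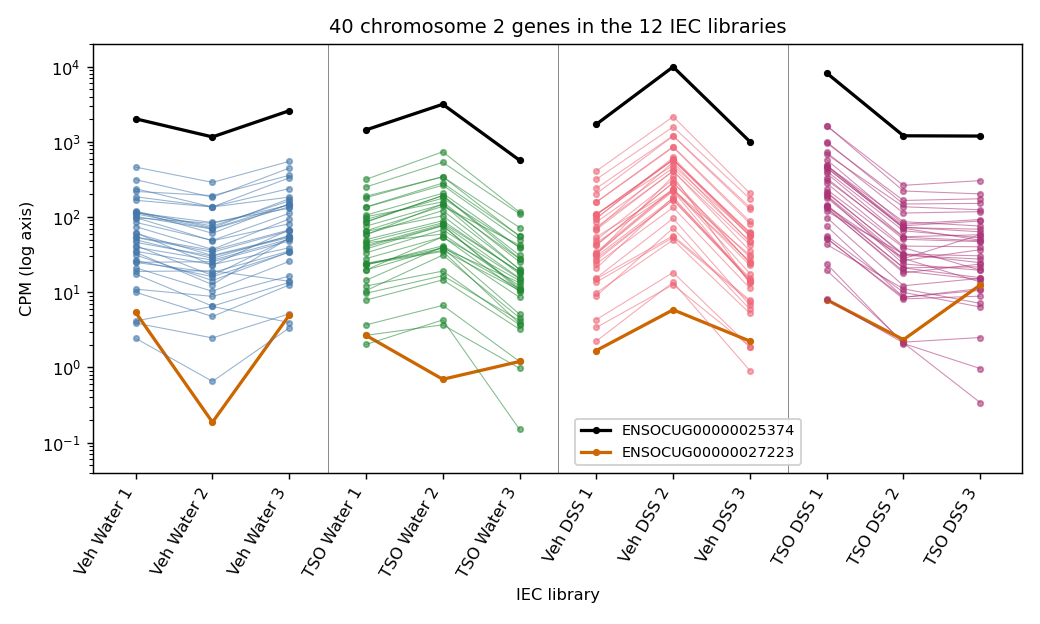
Level of each of the 40 genes (CPM, log axis) in the 12 IEC libraries, by group. Lines join the values of a gene within a group and mark no order. Nearly all genes had their highest values in Veh DSS 2 and TSO DSS 1, ENSOCUG00000025374 is drawn in black, and ENSOCUG00000027223, in orange, left the common course, with its highest value in TSO DSS 3.

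Veh DSS 2 and TSO DSS 1 were the 2 highest libraries for 39 of the 40 genes, with 33 genes highest in Veh DSS 2 and 6 in TSO DSS 1. For 36 genes the lowest library was TSO Water 3. The ratio of the highest to the lowest library had a median of 18.7-fold over the 40 genes, from 12.2-fold in ENSOCUG00000027178 to 91.0-fold in ENSOCUG00000021677, whose lowest library held 2 reads. Over the other 9555 genes the median of the same ratio was 2.32-fold. Without Veh DSS 2 and TSO DSS 1, the median over the 40 genes was 5.33-fold.

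The mean of Veh DSS 2 and TSO DSS 1 was 5.71-fold the mean of the other 10 libraries in the median gene, against 0.979-fold over the other genes. The lowest of the 40 was ENSOCUG00000027223 at 2.04-fold, the next was ENSOCUG00000023475 at 4.18-fold, and the highest was ENSOCUG00000026536 at 8.46-fold. A ratio of 4.18-fold or more was found in 139 of the other 9555 genes (1.45%). These libraries were chosen for the level of the 40 genes, so the ratio is a description.

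The make-up of the sum was nearly the same in each IEC library. ENSOCUG00000025374 accounted for 35.4% to 38.4% of the reads of the 40 genes, a coefficient of variation of 2.76% over the 12 libraries, while the sum itself varied 17.5-fold. ENSOCUG00000024526 accounted for 7.41% to 9.14% and ENSOCUG00000027394 for 5.57% to 7.49%. Over the 40 genes, the coefficient of variation of the share had a median of 14.1%. It was under 20% in 30 genes and over 40% in 3 genes, ENSOCUG00000014514 (48.1%), ENSOCUG00000021677 (44.4%) and ENSOCUG00000027223 (123%), which are among the 4 genes with the fewest reads.

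ENSOCUG00000026536, at a mean of 62.2 CPM, and ENSOCUG00000021122, at 66.6 CPM, varied more in their share than other members near that level. The coefficient of variation of the share was 36.1% and 35.9%. The share of ENSOCUG00000026536 ran from 0.385% to 1.31% of the sum, with 349.6 CPM in Veh DSS 2 and 119 CPM in TSO DSS 1. ENSOCUG00000021122 ran from 0.509% to 1.74% of the sum, with 58.2 CPM in TSO DSS 3 against 28.0 CPM in TSO DSS 2, 2 libraries in which the sum was nearly equal.

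ENSOCUG00000027223 stood apart from the remaining 39 genes. It had 5.38, 0.187 and 4.94 CPM in Veh Water, 2.67, 0.696 and 1.20 in TSO Water, 1.68, 5.84 and 2.24 in Veh DSS, and 7.96, 2.34 and 12.5 in TSO DSS. Its highest library was TSO DSS 3, in which 37 of the 39 other members were at or below their own median over the IEC libraries, and its lowest was Veh Water 2, with 4 reads. Across the 12 IEC libraries its log2(CPM + 1) correlated with that of the sum of the other genes at a Pearson r of 0.43.

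Across the same 12 libraries, the 780 pairs of the 40 genes had a median r of 0.97 on log2(CPM + 1), with 705 pairs above 0.9 and a lowest r of 0.12. All pairs share the libraries and their depth, and 2 libraries carry much of the range. Over the 10 libraries without Veh DSS 2 and TSO DSS 1, the median r was 0.91 and 433 pairs were above 0.9.

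The 3 genes most like each of the 40, among 9796 genes with a mean above 1 CPM in IEC, were mostly other members. Of the 120 places, 111 were taken by members, and 33 of the 40 genes had members in all 3 places. For ENSOCUG00000025374 the nearest were ENSOCUG00000003835, ENSOCUG00000025574 and ENSOCUG00000026446. The remaining 9 places went to 5 other genes. ENSOCUG00000027219 of chromosome 15 was the gene most like ENSOCUG00000024526 and was also among the 3 nearest of ENSOCUG00000003837, ENSOCUG00000003834 and ENSOCUG00000028050. ENSOCUG00000022114 of chromosome 2 was the nearest to ENSOCUG00000023475 and ENSOCUG00000014514. The 3 places of ENSOCUG00000027223 went to ENSOCUG00000021607, ENSOCUG00000013132 and ENSOCUG00000010643, at an r of 0.836 or lower.

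ENSOCUG00000027219 had a mean of 2430 CPM in IEC (392 to 8967) and of 70823 CPM in LPMC (31010 to 109021), a 29.1-fold higher level in LPMC. In IEC it had 1640, 1171 and 2255 CPM in Veh Water, 1314, 2786 and 392 in TSO Water, 1485, 8967 and 787 in Veh DSS, and 6352, 914 and 1100 in TSO DSS. The sum of the 40 genes was 2.80 to 3.88 times the level of ENSOCUG00000027219 in each of the 12 IEC libraries, whereas in LPMC it was 0. Their r was 0.99 for ENSOCUG00000025374 over 12 libraries and 0.98 over the 10 without Veh DSS 2 and TSO DSS 1.

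ENSOCUG00000022114 had a mean of 21.0 CPM in IEC and 661 CPM in LPMC, a ratio of 31.5, with an r of 0.98 with ENSOCUG00000025374 (0.92 without the 2 high libraries). The 10 genes outside the 40 most like ENSOCUG00000025374 were looked up after values were seen. All 10 had a higher mean in LPMC than in IEC, by 1.25-fold to 31.5-fold with a median of 21.4-fold, and 7 were more than 10-fold higher. Over the 9796 genes compared, the median was 0.976-fold, and 0.419% were more than 10-fold higher in LPMC. The least alike of the 10, ENSOCUG00000009204, had an r of 0.85, which was 0.28 without the 2 high libraries.

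Genes at high levels in LPMC were therefore also summed in IEC. The list held the 52 genes with a mean above 10 CPM in LPMC and at least 10 times their IEC mean, and was set from these values. In the IEC libraries 47 to 52 of the 52 genes had reads. Their summed level in IEC was 0.0619% to 1.03% of reads, highest in Veh DSS 2 (1.03%) and TSO DSS 1 (0.751%) and lowest in TSO Water 3 (0.0619%). Without ENSOCUG00000027219, the 51 remaining genes made up 0.0227% to 0.131% of reads, highest in Veh DSS 2 (0.131%) and TSO DSS 1 (0.116%). TSO DSS 2 was next at 0.0942%, although its sum of the 40 genes, 3367 CPM, was below the median of all IEC libraries but those 2. By group, this share was 0.0388% to 0.0541% in Veh Water, 0.0227% to 0.0554% in TSO Water, 0.0496% to 0.131% in Veh DSS and 0.0276% to 0.116% in TSO DSS. The order of the libraries is partly built in. Of the 52 genes, 7 were also among the 10 most like ENSOCUG00000025374, ENSOCUG00000027219 included. Among them ENSOCUG00000023055 had 590.3 CPM in Veh DSS 2 and 471 CPM in TSO DSS 1. The share without these 7 genes was not computed. The part of these LPMC-enriched genes, or of the cells they come from, in the level of the 40 genes was not tested.

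**Figure D3:**
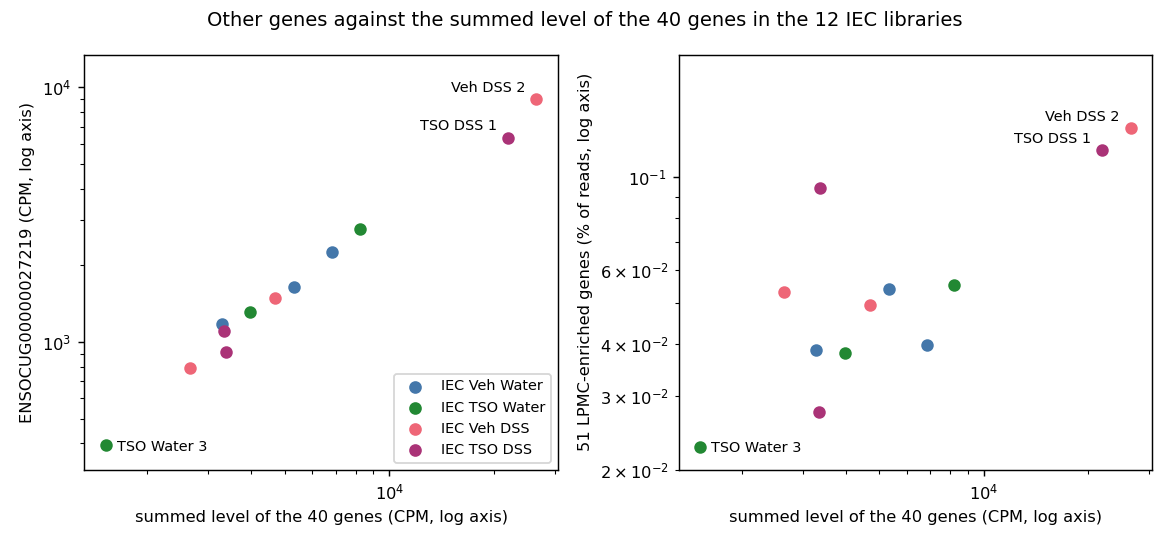
Level of ENSOCUG00000027219 (left, CPM) and summed share of the 51 other LPMC-enriched genes (right, % of reads) against the summed level of the 40 genes (CPM) in the 12 IEC libraries, coloured by group, all on log axes. On the left the libraries lie along a line, with the sum at 2.80 to 3.88 times the gene. On the right Veh DSS 2 and TSO DSS 1 are highest, at 0.131% and 0.116%, and the others are spread. Some of the 51 genes are among the 10 most like ENSOCUG00000025374, so the right panel is not independent of the level of the 40 genes.

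The groups were compared within IEC by limma on log2(value + 1), 3 rabbits against 3, with a gene called at a Benjamini-Hochberg adjusted p under 0.05 over all genes tested and a log2 fold change past 1 in either direction. None of the 40 genes was called in any of these comparisons, and each p measures the spread between rabbits. In none of the 5 comparisons of 2 groups did the values of a member fail to overlap between the groups. The 40 genes moved together across the libraries (median pair r of 0.97), so counts of members below are not counts of separate observations.

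TSO alone was compared with the vehicle in rabbits without DSS. In this comparison 0 of 10985 genes were called (0%), with 372 at an unadjusted p under 0.05, none of them a member, and the groups did not overlap in 8.35% of all genes and in 0 of the 40. ENSOCUG00000025374 had a log2 fold change of -0.19 (SE 0.68, 95% interval -1.81 to 1.44, limma adjusted p = 0.999). The 40 genes had a median of -0.20, from -0.57 to 0.28, with 34 lower and 6 higher in TSO Water, against a median of -0.02 over all genes. Of all genes 47.1% were higher in TSO Water. The direction was not stable, since edgeR and DESeq2 on reads gave a median of 0.11 with 28 of the 40 higher. With the rabbits of room A only, the value of ENSOCUG00000025374 was -0.83 (limma adjusted p = 0.991).

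DSS was compared with water in vehicle rabbits. Here 0.0893% of the 11193 genes were called and 13.4% did not overlap between groups, against 0 of the 40 for both. The 10 genes called became 302 without Veh DSS 1 and 0 with the rabbits of room A only. ENSOCUG00000025374 had a log2 fold change of 0.57 (SE 0.87, 95% interval -1.52 to 2.66, limma adjusted p = 0.840). All 40 genes had a positive value, with a median of 0.56 and a range of 0.20 to 0.98, against a median of -0.05 over all genes. Of all genes 44.0% had a positive value. On reads, the median was 1.24 by edgeR and 1.25 by DESeq2, each with 39 of the 40 higher and none called, and DESeq2 gave 1 member, ENSOCUG00000026536, an unadjusted p under 0.05, as it did for 11.4% of all genes. The sign rested on 1 library. Without Veh DSS 2 the median of the 40 was -0.41, with 39 lower and 1 higher, and the value of ENSOCUG00000025374 was -0.42. In room A alone the latter was 0.65 (limma adjusted p = 0.862).

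The same held for TSO DSS against Veh Water, the comparison with the most called genes. In all, 3.57% of 11225 genes were called and 21.9% did not overlap, against 0 of the 40 for both. The 401 genes called became 127 without TSO DSS 1, 211 without Veh Water 3 and 202 with the replicate number as a block. ENSOCUG00000025374 had a value of 0.56 (SE 0.75, 95% interval -1.24 to 2.35, limma adjusted p = 0.770), and the 40 genes a median of 0.57, from -0.13 to 1.96, against -0.02 over all genes. The highest value, 1.96 (95% interval -1.26 to 5.19), was that of ENSOCUG00000027223. On reads, the median was 1.04 by edgeR and 1.03 by DESeq2, with all 40 higher and none called, and DESeq2 gave 2 members, ENSOCUG00000021122 and ENSOCUG00000027043, an unadjusted p under 0.05, as it did for 17.5% of all genes. Without TSO DSS 1 the median was -0.28, with 34 of the 40 lower, and ENSOCUG00000025374 stood at -0.31. In room A alone ENSOCUG00000025374 had 0.63 (limma adjusted p = 0.786).

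TSO was also compared with the vehicle in rabbits given DSS, all from room A. Of 11355 genes 0.00881% were called and 5.22% did not overlap, against 0 of the 40 for both. ENSOCUG00000025374 differed by -0.05 (SE 1.10, 95% interval -2.71 to 2.61, limma adjusted p = 1.00). The 40 genes had a median of -0.01, from -0.59 to 1.25, with 20 higher and 20 lower. The split was 9 higher and 31 lower with library-size scaling and with DESeq2, and 10 and 30 by edgeR. With CPM outside the mitochondrial chromosome it was 27 and 13. The balance also rested on single libraries, since without Veh DSS 2 all 40 were higher in TSO DSS, with a median of 0.97, and without TSO DSS 1 the median was -0.85, with 39 lower. Without both it was 0.08, with 28 higher and 12 lower. Each group held 1 of the 2 high libraries, and the median standard error of the 40 genes was 1.09, against 0.30 over all genes, so that a difference of several fold in either direction lies within the interval.

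DSS was compared with water in TSO rabbits, where 1.79% of 11263 genes were called and 16.9% did not overlap, again against 0 of the 40 for both. The 202 genes called became 24 without TSO DSS 1, 110 without TSO Water 2, which leaves room A only, 113 without TSO Water 3 and 56 with the replicate number as a block. ENSOCUG00000025374 had a value of 0.72 (SE 0.94, 95% interval -1.56 to 3.00, limma adjusted p = 0.848), and all 40 genes were higher in TSO DSS, with a median of 0.80 and a range of 0.23 to 2.18. Of all genes 47.7% were higher in TSO DSS. ENSOCUG00000027223 had the highest value, 2.18 (SE 0.78, 95% interval 0.29 to 4.07, limma adjusted p = 0.346), and was the only member with an unadjusted p under 0.05, which 11.4% of all genes had. Its unadjusted p was above 0.05, between 0.0673 and 0.0942, without TSO Water 2 (which leaves room A only), TSO Water 3, TSO DSS 1 or TSO DSS 3, with the room as a covariate, and with all 12 IEC libraries in the fit. In room A its value was 1.86 (95% interval -0.43 to 4.15). DESeq2 called this gene (DESeq2 adjusted p = 0.0204) as 1 of the 40, beside 4.23% of all genes, whereas edgeR did not. Without TSO DSS 1 the median of the 40 was -0.04, with 24 lower and 16 higher, and ENSOCUG00000025374 had -0.15. In room A alone ENSOCUG00000025374 had 1.44 (limma adjusted p = 0.721). The comparisons share groups, so their values for the members are not independent of each other.

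The interaction of TSO with DSS was fitted over the 12 IEC libraries and asked whether the difference with DSS differed between TSO and Veh rabbits. It called 0% of 11382 genes, with 171 at an unadjusted p under 0.05, none of them a member. ENSOCUG00000025374 had 0.15 (SE 1.40, 95% interval -2.94 to 3.25, limma adjusted p = 1.000), and the 40 genes a median of 0.17, from -0.22 to 1.51. With edgeR and DESeq2 the median was -0.29 and -0.31. Without the 2 high libraries the median was 0.37 and the value of ENSOCUG00000025374 was 0.27. In room A alone the median was 0.76, from 0.21 to 1.46, with none called.

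**Figure D4:**
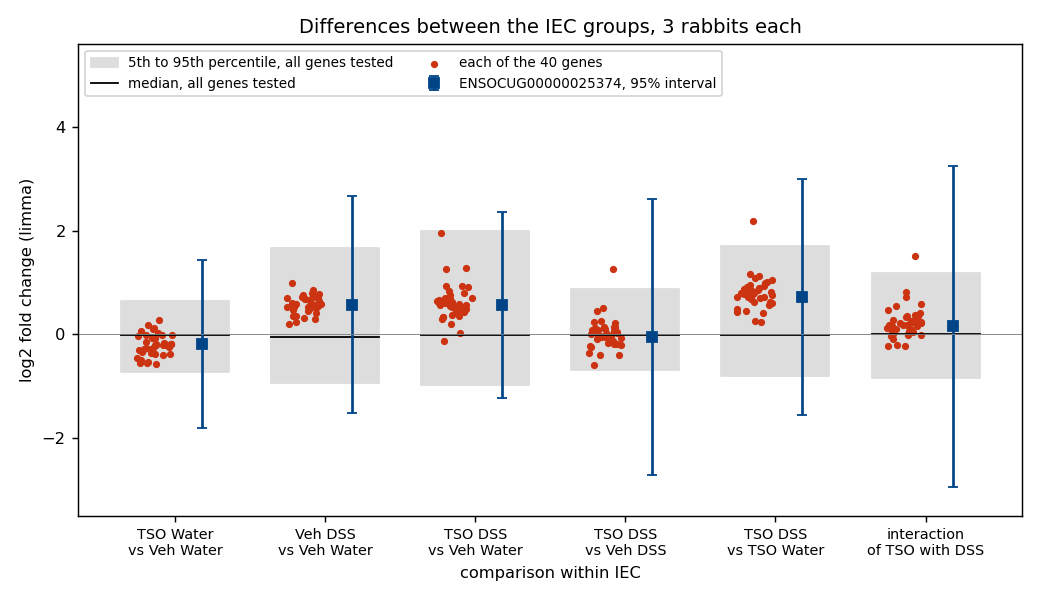
log2 fold changes of the 40 genes (red points) in the 6 IEC comparisons by limma, beside the median and the 5th to 95th percentile of all genes tested (black line and grey box). The blue square is ENSOCUG00000025374 with its 95% interval, which includes 0 in each comparison.

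Pooled over the other factor, 6 libraries were set against 6 by an exact permutation test on log2(CPM + 1), two-sided, over 924 splits, of which the smallest possible p is 0.00216. For TSO against Veh, ENSOCUG00000025374 differed by -0.29 (10.79 ± 1.34 against 11.08 ± 1.19, SD, n = 6 each; exact p = 0.697). The 40 genes had a median of -0.28, and their smallest exact p was 0.502, whereas 7.20% of the 11382 genes had an exact p under 0.05. Without the 2 high libraries, ENSOCUG00000025374 differed by -0.30 (exact p = 0.579). For DSS against Water, ENSOCUG00000025374 differed by 0.61 (11.24 ± 1.49 against 10.63 ± 0.90, SD, n = 6 each; exact p = 0.392).

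In the latter comparison all 40 genes had a positive difference, with a median of 0.63 from 0.20 to 0.92, and the smallest exact p was 0.145, in ENSOCUG00000027223, against 14.3% of all genes with an exact p under 0.05. Without the 2 high libraries, the difference of ENSOCUG00000025374 was -0.34 (exact p = 0.505). For the spread of the 4 groups, an F ratio permuted over all 15400 splits, ENSOCUG00000025374 had 0.26 (exact p = 0.869), and the ratios of the 40 genes ran from 0.03 to 1.44, with no exact p below 0.305. Without the 2 high libraries the ratio of ENSOCUG00000025374 was 0.27 (exact p = 0.834). An exact p under 0.05 was found in 7.92% of all genes and in 0 of the 40. Within room A, ENSOCUG00000025374 differed by -0.48 with TSO (exact p = 0.579) and by 0.95 with DSS (exact p = 0.286).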

How the data were processed

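RNA of IEC and LPMC of 12 rabbits was sequenced with a polyA protocol without strand; the labels describe single-end reads and the methods paired inserts. The authors deposited 6 tables, each with a normalized signal per gene for 3 treated and 3 Veh Water libraries, which is reads times 1 factor per library and table; the submitters' processing notes name OryCun2.0 and FastQC, and the aligner and counter are not given in the sources used here. The authors' own log2 ratios and p-values were not used. The smallest step between low values of a column gave its whole reads (100.0% of values under 400 reads within 0.1 of a whole number), from which came CPM and the depth of 224763769 IEC and 139540618 LPMC reads.

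Rabbits and rooms came from the study's sample sheet. Comparisons with Veh Water used limma 3.58.1 (trend, R 4.3.3) on log2(value + 1) within a table, for genes marked present and the 40 genes; the others used recovered reads scaled by TMM. edgeR 4.0.16 (quasi-likelihood), DESeq2 1.42.0, other scalings, pseudocounts and filters, rooms and left-out libraries were alternatives, and leaving out the 2 highest libraries was added after the data were seen. Tests were checked on simulated data. The 40 genes, their rule and the comparisons were chosen with earlier results of these data known. Named beside the 40 were the genes nearest the limits of the rule and the 3 genes most correlated with each; the 10 genes most like ENSOCUG00000025374 were added later. Replicate numbers mark different rabbits, and deviations of same-numbered libraries correlated between -0.33 and 0.20 over 18 pairs. Permutations used Python 3.11.15 with numpy 2.4.6.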

Additional observations from a re-analysis of the deposited data

How the results depend on the processing

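No member was called under any of the alternatives run, except ENSOCUG00000027223 by DESeq2 in TSO DSS against TSO Water (1 member called). The direction was less stable. That of ENSOCUG00000025374, which was not called anywhere, turned in 25 of 138 values under alternatives, and that of the median of the 40 genes in 22 of 104. These counts hold some fits more than once. Room A only, or leaving out the 2 high libraries, equals leaving out a single library where a comparison holds only 1 such library. For TSO Water against Veh Water edgeR and DESeq2 both gave 0.14, and leaving out single libraries gave -0.90 to 0.43 (0.43 without TSO Water 3, 0.09 without Veh Water 3). For Veh DSS against Veh Water leaving out single libraries gave -0.42 to 1.30, and for TSO DSS against Veh Water -0.31 to 1.10; edgeR and DESeq2 gave 1.24 and 1.25 for the former, against 0.57, and 1.04 and 1.03 for the latter, against 0.56. For TSO DSS against Veh DSS it gave -0.92 to 0.94, CPM outside the mitochondrial chromosome gave 0.04, and leaving out Veh DSS 2 and TSO DSS 1 together gave 0.07. For TSO DSS against TSO Water it gave -0.15 to 1.44. For the interaction it gave -0.72 to 1.14, edgeR -0.35 and DESeq2 -0.37. Without both high libraries the values were -0.42 (Veh DSS) and -0.31 (TSO DSS) against Veh Water, and -0.15 for TSO DSS against TSO Water. Each of these comparisons holds only 1 of the 2 libraries, so these values repeat the lowest ones with single libraries left out. In the exact tests, leaving out single libraries gave -0.74 to 0.14 for TSO, 0.21 to 0.87 for DSS and 0.07 to 0.61 for the F ratio, and without both high libraries the DSS difference was -0.34. Apart from left-out libraries, whose construction shows it, the cause was not tested.

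The replicate number as a block, which pairs different rabbits, left ENSOCUG00000025374 at -0.19, 0.57, 0.56, -0.05, 0.72 and 0.15 in the 6 comparisons and changed no call of a member. It moved the count of all genes called from 10 to 0 in Veh DSS and from 401 to 202 in TSO DSS, both against Veh Water, from 1 to 0 in TSO DSS against Veh DSS and from 202 to 56 in TSO DSS against TSO Water. For TSO DSS against Veh DSS, room A only and the room as a covariate were not run, since all these rabbits were in room A.

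Counts of all genes called moved by over 1.5 times between tools and with single libraries left out. In Veh DSS against Veh Water, the 10 genes became 302 without Veh DSS 1, 4 without Veh DSS 2, 2 without Veh Water 2, 0 without Veh Water 1 or Veh Water 3, 6 with library-size scaling or CPM outside the mitochondrial chromosome, and 1 with the room as a covariate. In TSO DSS against TSO Water, the room as a covariate left 102. Where limma called 0 or 1 gene, leaving out a single library gave 0 to 3. DESeq2 called 22 genes against 0 in TSO Water, 402 against 10 in Veh DSS, 746 against 401 in TSO DSS, 31 against 1 in TSO DSS against Veh DSS, 476 against 202 in TSO DSS against TSO Water and 10 against 0 in the interaction, and edgeR 2 against 10 in Veh DSS. With all 12 IEC libraries in the fit, limma called 2, 3, 127, 0 and 12 in the first 5. With 3 rabbits a group and 1 high library in each DSS group, differences of the size seen could not be told from the spread between rabbits.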
